A study of Mus musculus with 24 samples.

Results

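The integrated stress response genes examined here are Atf4, Ddit3, Trib3, Chac1, Ddit4, Asns, Psat1, Phgdh, Shmt2 and Mthfd2. These 10 of the 38019 gene symbols in the deposited tables were chosen by name, as Atf4 and well-known genes downstream of it, with earlier results of these data known. In this response, kinases that sense amino acid shortage, endoplasmic reticulum stress, haem shortage or double-stranded RNA phosphorylate the translation factor eIF2, which lowers general protein synthesis and raises translation of the Atf4 mRNA. The ATF4 protein, a bZIP transcription factor, then activates genes for amino acid synthesis and transport, for mitochondrial folate metabolism and, under prolonged stress, for cell death. Because ATF4 is controlled largely at translation, its mRNA level does not report its protein level.

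The series measured total RNA in 24 libraries of mouse limb buds (strain C57/Bl6), dissected at E10.5 or E11.5. All embryos carried the floxed U11 allele on both chromosomes. The control group (genotype U11flx/flx::Prrx1-Cre-, called WT here) lacked Cre, and the mutant group (U11flx/flx::Prrx1-Cre+) carried it. Prrx1-Cre is active in limb mesenchyme, so other cells of the bud would keep the floxed gene intact, which was not measured by cell type. U11, encoded by Rnu11, is a small nuclear RNA of the minor spliceosome. Forelimb (FL) and hindlimb (HL) buds of each genotype and stage gave 8 groups of 3 libraries. The labels do not say which embryos a library came from, so p-values measure the spread between these libraries, which may be partly technical.

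Levels are given in TPM (a relative abundance that corrects for transcript length) after each library was rescaled to an equal median over 3518 genes expressed in every library. Read depth is not kept in TPM and is unknown. Differences are on the scale log2(rescaled TPM + 1), which understates changes of low genes. Folds and their intervals are these differences turned back from log2. They are thus ratios of TPM + 1 and understate changes of low genes in the same way. A gene was called when its limma p-value, adjusted over all genes of the fit, was under 0.05. Rnu11 ranged from 251 to 2087 TPM in the 12 WT libraries and from 94.2 to 482 TPM in the 12 mutant libraries, so the ranges overlapped. WT forelimb replicate 1 at E10.5 had the lowest WT Rnu11 and a low level of the forelimb factor Tbx5 (2.25 TPM, against 7.47 and 10.1 TPM in its group). Mutant forelimb replicate 3 at E10.5 had the highest mutant Rnu11 and carried the hindlimb transcripts Hoxc10 at 3.91 TPM and Pitx1 at 1.53 TPM. Xist reached 5 TPM in 6 libraries, all of them mutant. The female-specific RNA thus moved with genotype. Some calls of members between stages were lost without these libraries, as stated below. The mutant forelimb buds at E10.5 had higher summed erythroid markers (14 genes, 4565 to 5560 TPM) than WT (2086 to 2936 TPM). Summed limb mesenchyme markers (16 genes) were 128 to 234 TPM in mutant and 230 to 306 TPM in WT, with an overlap. The lowest of each were mutant replicate 3 and WT replicate 1, the libraries named above. As single genes, 0 of 12 tested erythroid and 0 of 16 mesenchyme markers were called there. No marker of either list was at 0 in all libraries of a group, and their part in the results was not tested. In bulk tissue, fewer cells of a type and less RNA per cell cannot be told apart.

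The ATF4 protein binds composite C/EBP-ATF response elements, of which TTGCATCA is the classic core. To look for such elements, the RefSeq promoter windows (build GRCm38.p6, 250 bases before to 50 bases after the transcription start) of all 10 genes were searched on both strands. The search covered TTGCATCA, its relaxed form TTNCATCA, which includes the first, the endoplasmic reticulum stress element (CCAAT and CCACG separated by 9 bases) and the cAMP response element TGACGTCA. Only Chac1 held TTGCATCA, at positions -193 to -186 from the start, a motif found in 0.895% of all 32851 promoter windows. Asns (positions -23 to -16, on the opposite strand) and Trib3 (positions 15 to 22 after the start) held TTNCATCA, as did 3.97% of all windows. The other 7 genes held none of the 4 motifs in these windows, and no member held the endoplasmic reticulum stress element (0.119% of windows) or the cAMP response element (1.79%). A match describes letters only and does not show binding. The sequences are written from RefSeq 5′ to 3′ on the gene's strand, with the matched element in capitals, first the 250 bases before the start of Chac1 (chr2:119350992-119351241, plus strand) and Asns (chr6:7693210-7693459, minus strand), then 30 bases around the Trib3 site (chr2:152344028-152344057, minus strand).
Chac1: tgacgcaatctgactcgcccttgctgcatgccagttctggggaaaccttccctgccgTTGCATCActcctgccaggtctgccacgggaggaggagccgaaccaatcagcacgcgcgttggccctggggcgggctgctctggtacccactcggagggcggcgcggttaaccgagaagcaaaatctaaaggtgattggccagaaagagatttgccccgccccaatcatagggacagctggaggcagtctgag
Asns: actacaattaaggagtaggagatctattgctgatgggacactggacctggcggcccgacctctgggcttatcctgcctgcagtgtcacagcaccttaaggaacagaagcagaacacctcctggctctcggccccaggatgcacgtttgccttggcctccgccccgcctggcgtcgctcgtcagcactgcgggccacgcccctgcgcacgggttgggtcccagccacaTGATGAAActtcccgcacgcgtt
Trib3: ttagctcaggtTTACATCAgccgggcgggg
Of these 3 genes with a match, Chac1 and Trib3 were the lowest members in the limb bud, while Asns was among the highest.

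In level, Atf4 and the amino acid enzymes were the highest members and Trib3 and Chac1 the lowest. Over the 24 libraries the highest was Phgdh, the enzyme of the first step of serine synthesis from glycolysis, at 30.6 ± 5.07 TPM (SD, n = 24). Psat1, the aminotransferase of the next step, averaged 25.8 ± 4.41 TPM, Atf4 24.3 ± 6.17 TPM and Asns, which makes asparagine, 20.2 ± 4.28 TPM. These 4 ranges overlapped, and the order changed with stage. At E10.5 the medians were 29.5 TPM for Atf4, 28.6 TPM for Psat1 and 25.8 TPM for Phgdh, whereas at E11.5 Phgdh (33.6 TPM) was above Psat1 (23.1 TPM) and Atf4 (18.1 TPM). Mthfd2 (10.9 ± 2.43 TPM) and Shmt2 (10.6 ± 2.41 TPM), enzymes of mitochondrial folate metabolism, could not be separated by their spread. Ddit4, which encodes the mTORC1 inhibitor REDD1, averaged 5.92 ± 2.77 TPM. Ddit3, which encodes the pro-death transcription factor CHOP, averaged 2.40 ± 0.375 TPM. Trib3, a pseudokinase gene induced by ATF4 and CHOP, averaged 0.226 ± 0.125 TPM, and Chac1, which encodes a glutathione-degrading enzyme, 0.0727 ± 0.0363 TPM. No member was at 0 in any library, but every Trib3 and Chac1 value was under 1 TPM, so these genes failed the filter of 1 TPM in 3 libraries in every fit. The other 8 were tested.

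**Figure D1:**
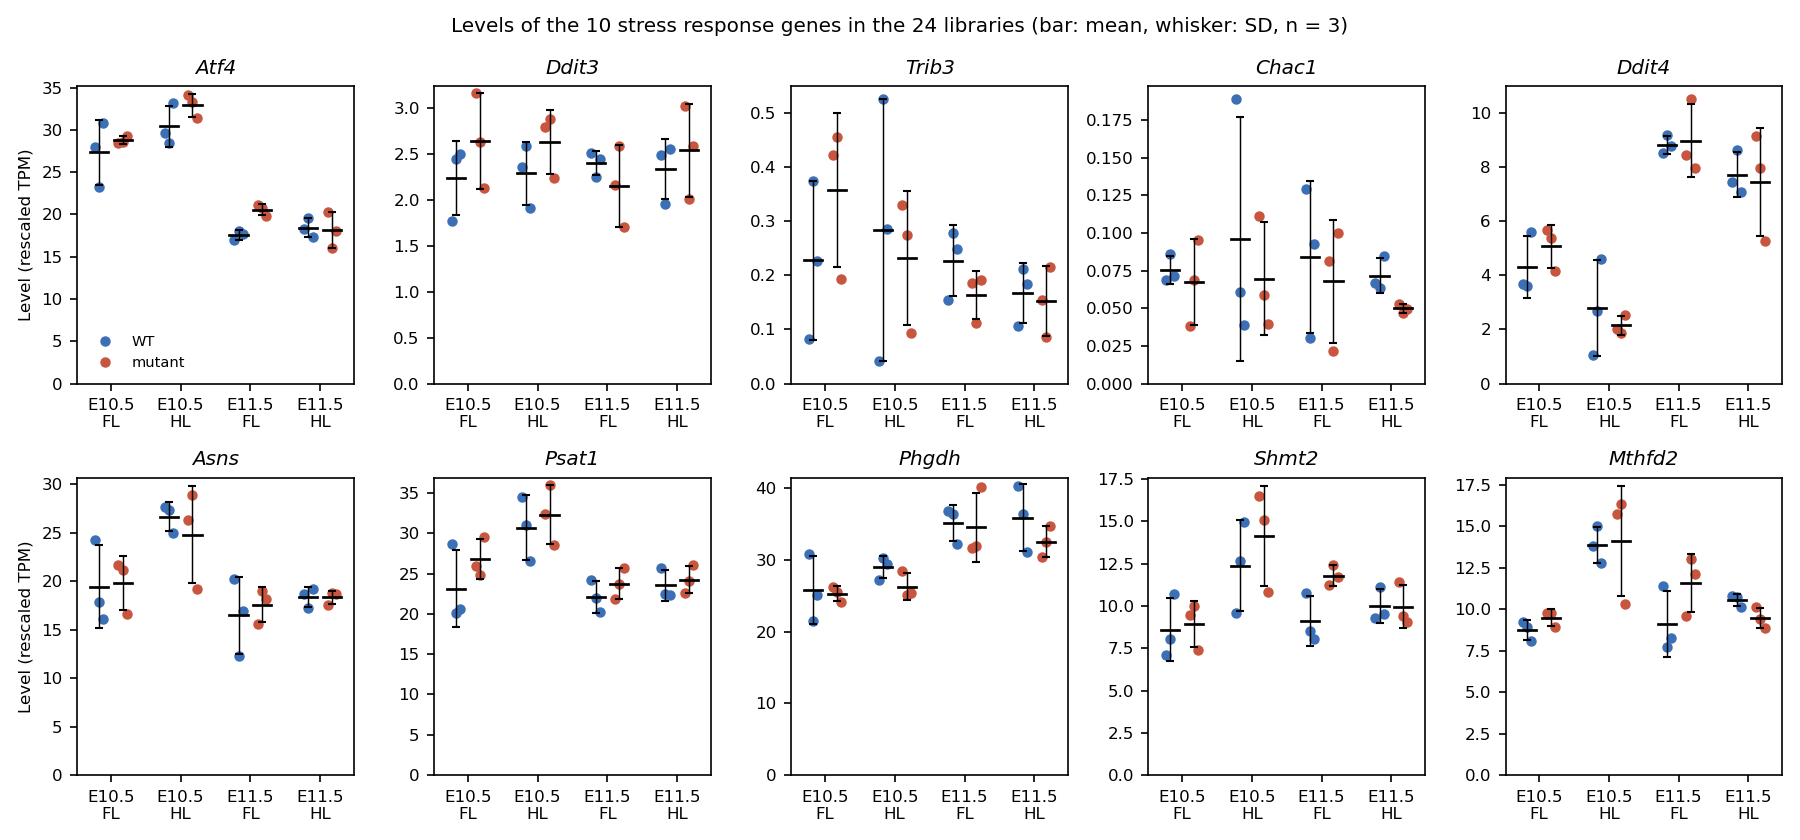
Level (rescaled TPM, linear axis from 0, own scale per gene) of each of the 10 genes in the 24 libraries, by stage and limb, with WT in blue and mutant in red. Points are libraries, bars means and whiskers SD (n = 3). Atf4 is lower in every E11.5 library (highest 21.1) than in every E10.5 library (lowest 23.2), Ddit4 shows the opposite shift with an overlap, and WT and mutant points mostly intermingle.

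By position in the GRCm38 annotation (GENCODE M21), Atf4 lies at chr15:80255184-80257541 (plus strand), Ddit3 at chr10:127290774-127296288 (plus), Trib3 at chr2:152337422-152344032 (minus), Chac1 at chr2:119351229-119354381 (plus) and Ddit4 at chr10:59949669-59951834 (minus). Asns lies at chr6:7675169-7693254 (minus), Psat1 at chr19:15904678-15947337 (minus), Phgdh at chr3:98313170-98339990 (minus), Shmt2 at chr10:127517123-127522444 (minus) and Mthfd2 at chr6:83305691-83325908 (minus). The 3′ end of Ddit3 overlaps Mars on the opposite strand. Shmt2 overlaps Ndufa4l2 on the opposite strand. The 5′ end of Ddit3 overlaps Gm4189 on the opposite strand (mean 0.1465 TPM as deposited). Psat1 overlaps the pseudogene Gm3329 on the opposite strand, which the deposited tables do not list. Mthfd2 overlaps Gm43890 on the same strand (mean 0.377 TPM as deposited), where strand would not separate the reads. No source used here says whether the counting used strand, so reads in these overlaps cannot be assigned to a gene.

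The first comparison asked whether loss of U11 changed these genes. At E10.5 it did not detectably do so. Atf4 measured 28.0, 23.2 and 30.8 TPM in WT forelimb and 28.5, 28.5 and 29.3 TPM in mutant forelimb, with the mutant values inside the WT range. In hindlimb it measured 29.7, 28.4 and 33.1 TPM in WT and 34.1, 33.3 and 31.4 TPM in mutant, again overlapping. Ddit3 measured 1.77, 2.45 and 2.50 TPM in WT forelimb and 3.17, 2.63 and 2.13 TPM in mutant forelimb, which overlapped. Of the 8 tested members, 0 were called by limma in forelimb (0.0265% of all 11336 genes were called) and 0 in hindlimb (0.00882%). In either limb 0 members had an unadjusted p under 0.05, against 585 of all genes in forelimb and 215 in hindlimb. All 8 overlapped between genotypes in both limbs, where 10.3% of all genes in forelimb and 5.56% in hindlimb did not. The median difference of the 8 was 0.09 in forelimb (0.02 over all genes) and 0.04 in hindlimb (-0.0015 over all genes). The 95% intervals of the folds ran from 0.732 to 1.82 in forelimb and from 0.571 to 1.54 in hindlimb. Ddit4 set both bounds in forelimb and the lower one in hindlimb, and Shmt2 set the other. For Atf4 the interval was 0.885 to 1.26 in forelimb and 0.906 to 1.29 in hindlimb. Without WT forelimb replicate 1 and mutant forelimb replicate 3, 0 members were called in forelimb. The untested genes also overlapped. Trib3 ranged from 0.0819 to 0.375 TPM in WT forelimb and from 0.194 to 0.455 TPM in mutant forelimb, and Chac1 from 0.0690 to 0.0861 and from 0.0381 to 0.0951 TPM.

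At E11.5, forelimb levels of Atf4, Shmt2 and Mthfd2 were nominally higher in mutants, but no member passed the test. Atf4 measured 16.9, 18.0 and 17.7 TPM in WT forelimb and 21.1, 20.8 and 19.8 TPM in mutant forelimb, so all 3 mutants lay above all 3 controls. The difference was 0.22 ± 0.09 (SE), a fold of 1.16 with an interval of 1.02 to 1.33 (adjusted p = 0.176). Shmt2, the mitochondrial enzyme that splits serine to give glycine and a folate-bound carbon, measured 10.8, 8.49 and 8.02 TPM in WT and 11.2, 12.4 and 11.7 TPM in mutant, without overlap. Its difference was 0.35 ± 0.12 (fold 1.27, interval 1.07 to 1.52, adjusted p = 0.117). Mthfd2, which oxidises that carbon, measured 11.4, 7.69 and 8.28 TPM in WT and 9.60, 13.04 and 12.1 TPM in mutant, with an overlap through WT replicate 1. Its difference was 0.32 ± 0.14 (adjusted p = 0.19). These were the 3 of 8 members with an unadjusted p under 0.05, against 2591 of all 11398 genes. After adjustment 0 of 8 were called, against 1.66% of 11398 genes (51 higher, 138 lower). Atf4 and Shmt2, 2 of 8 members, did not overlap between genotypes, against 25.8% of all genes. The median difference of the 8 was 0.10, against -0.03 over all genes. Without WT forelimb replicate 1, 1 member, Shmt2, was called (difference 0.47, adjusted p = 0.0497). On the deposited TPM scale, 4 members (Atf4, Psat1, Shmt2 and Mthfd2) were called higher, but the median of all genes was then 0.39 above 0, and 3733 genes were called, 98.9% of them higher. On that scale the members' median was 0.60. With nuclear protein-coding genes alone, brought to an equal sum per library in place of an equal median, 48 genes were higher and 55 lower. On that scale 0 members were called. Summed markers of 10 endothelial genes were 26.1 to 34.4 TPM in mutant and 21.7 to 24.7 TPM in WT forelimb at this stage, and the 16 limb mesenchyme markers 293 to 343 TPM in mutant and 325 to 364 TPM in WT. Among the markers, Pdgfra was called lower (-0.41, adjusted p = 0.0406) and the myogenic gene Lbx1 higher (0.57, 0.02), and the part of these cells in the values was not tested.

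**Figure D2:**
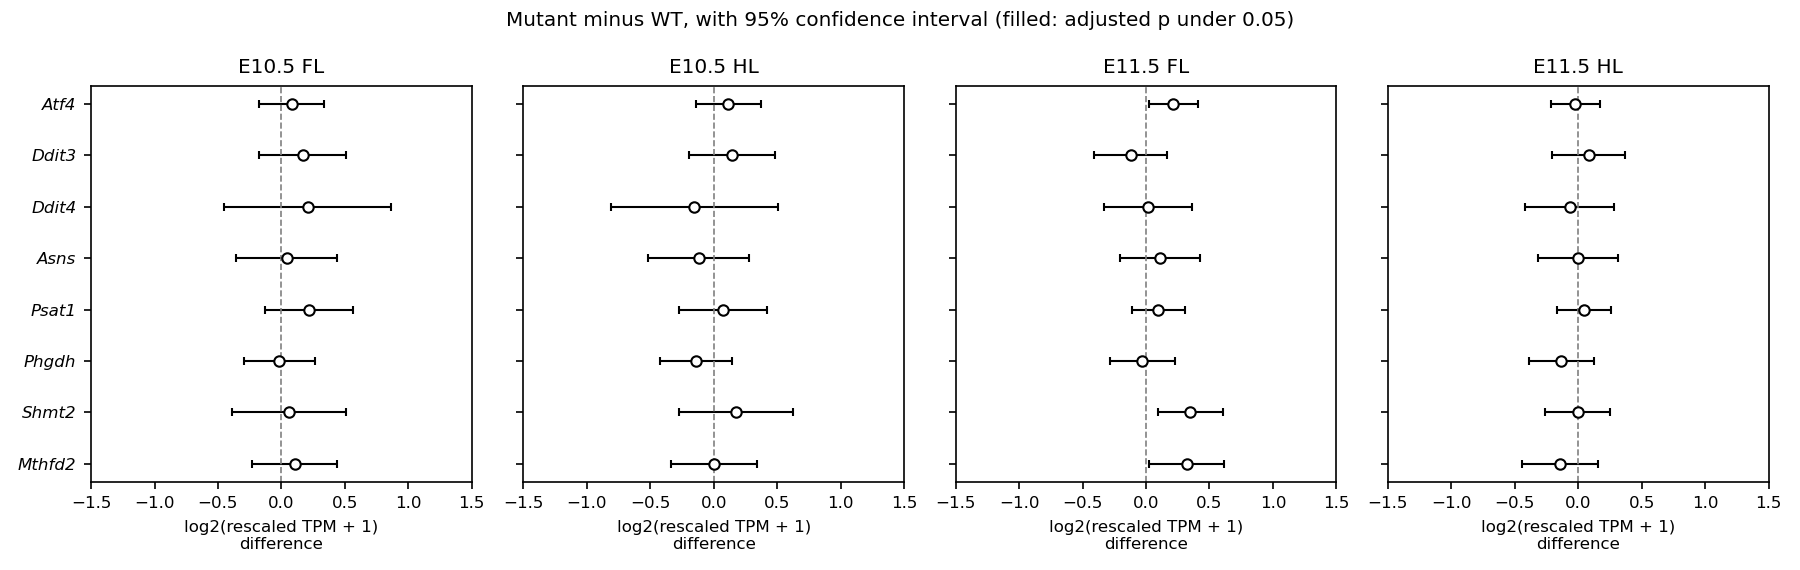
Difference between mutant and WT, on the log2(rescaled TPM + 1) scale, for the 8 tested genes in each stage and limb, with 95% confidence intervals from limma. Open symbols did not pass an adjusted p of 0.05, and none is filled. In E11.5 forelimb the intervals of Atf4, Shmt2 and Mthfd2 lie above 0 (0.22, 0.35 and 0.32).

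The other members were closer to equal in E11.5 forelimb. Ddit4 measured 8.52, 9.19 and 8.80 TPM in WT and 8.45, 10.54 and 7.98 TPM in mutant (fold 1.01, interval 0.794 to 1.29). Ddit3 measured 2.51, 2.25 and 2.44 TPM in WT and 2.16, 2.59 and 1.70 TPM in mutant (fold 0.92, interval 0.754 to 1.12). The genotypes overlapped for both. Trib3 ranged from 0.153 to 0.278 TPM in WT and from 0.112 to 0.192 TPM in mutant, and Chac1 from 0.0299 to 0.129 TPM and from 0.0218 to 0.1002 TPM, so these last 2 genes stayed under 1 TPM in both genotypes.

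In E11.5 hindlimb, Atf4 measured 18.2, 19.6 and 17.4 TPM in WT and 20.3, 16.0 and 18.0 TPM in mutant, which overlapped (fold 0.983, interval 0.86 to 1.12). By limma 0 of 8 members were called (0.0175% of genes) and 0 had an unadjusted p under 0.05 (705 of 11398 genes did). Of the tested members Mthfd2 alone did not overlap (1 of 8, 11.7% of genes), at 10.8, 10.7 and 10.14 TPM in WT and 10.13, 9.40 and 8.88 TPM in mutant. Of the untested genes Trib3 overlapped. Chac1 did not, at 0.0631 to 0.0848 TPM in WT and 0.0468 to 0.0530 TPM in mutant, all far under 1 TPM. The intervals of the folds ran from 0.737 to 1.29 over the 8, and their median difference was -0.02, against -0.04 over all genes. Averaged over limbs, 0 members were called at E10.5 (0.00882% of genes) or at E11.5 (0.579%). At either stage 0 had an unadjusted p under 0.05, against 533 of 11336 genes at E10.5 and 1999 of 11398 at E11.5. The difference between limbs in the mutant effect was -0.46 ± 0.19 for Mthfd2, -0.36 ± 0.17 for Shmt2 and -0.24 ± 0.12 for Atf4 at E11.5 (adjusted p = 0.356, 0.374 and 0.402), so the forelimb pattern was not shown to differ from that in hindlimb. For this difference, 0 members were called at E10.5 (0% of genes) and 0 at E11.5 (0.0175%). At an unadjusted p under 0.05 there were 0 at E10.5 (284 of 11336 genes) and 1, Mthfd2, at E11.5 (1533 of 11398 genes). The mutant effect was not shown to differ between stages either, with 0 members called in forelimb (0.0660%) or hindlimb (0.00825%). For that difference 0 had an unadjusted p under 0.05, against 1545 of 12118 genes in forelimb and 307 in hindlimb.

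Genes around these members were counted from lists of the same pathway in E11.5 forelimb, where 0.447% of all genes were called higher and 1.21% lower. Of 17 genes for eIF2 kinases and eIF2 control, 0 were called, with a median difference of 0.12. Of 21 cytosolic aminoacyl-tRNA synthetases and 13 further serine, glycine and folate genes, 0 were called (medians 0.16 and 0.10). Of 10 amino acid transporters, 1 was called higher, Slc1a5, the glutamine transporter ASCT2. It measured 2.13, 1.77 and 1.88 TPM in WT and 4.01, 3.60 and 3.38 TPM in mutant, with no overlap. Its difference was 0.67 ± 0.09 (adjusted p = 0.00612), and 0.58 ± 0.07 averaged over limbs (adjusted p = 0.00303). The averaged fit treats forelimb and hindlimb libraries as independent, though they may come from the same embryos. In hindlimb alone it measured 2.13, 2.72 and 2.16 TPM in WT and 3.75, 3.64 and 3.71 TPM in mutant (0.50 ± 0.09, adjusted p = 0.425). The call in forelimb was lost in a fit of the forelimb libraries alone (adjusted p = 0.0501) and in a fit of all 24 libraries (0.453), while leaving out each of the 6 forelimb libraries in turn did not end it. Slc1a5 varied widely at E10.5, from 1.14 to 12.04 TPM.

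Of 15 other ATF4 target genes tested in E11.5 forelimb, 1 was called higher, Sesn2, which encodes a leucine sensor acting on mTORC1 and is also a p53 target. It measured 1.70, 1.35 and 1.18 TPM in WT and 4.02, 4.83 and 2.45 TPM in mutant, without overlap. The difference was 0.96 ± 0.18 (adjusted p = 0.03). Leaving out WT replicate 2 (adjusted p = 0.111), WT replicate 3 (0.107) or mutant replicate 2 (0.129) ended the call. Of 4 bZIP partners and other factors, 1 was called higher, Myc (0.61 ± 0.13, adjusted p = 0.0453), and leaving out any 1 of the 6 libraries ended that call. Of 21 endoplasmic reticulum chaperones and XBP1 or ATF6 targets, 2 were called higher, the chaperone genes Dnajb11 (0.42 ± 0.08, adjusted p = 0.0336) and Hyou1 (0.57 ± 0.12, adjusted p = 0.0439). Neither call held when replicate 2 or 3 of either genotype was left out, with adjusted p reaching 0.143 and 0.161. Of 10 mitochondrial chaperones and proteases, 0 were called (median 0.20). Of 16 hypoxia targets, 1 was called lower, Kdm3a (-0.41 ± 0.08, adjusted p = 0.03), and on the deposited scale the difference was 0.091. In these lists 0 genes were called at E10.5 in either limb or in E11.5 hindlimb. For Sesn2, Myc, Dnajb11 and Hyou1 the forelimb effect was not shown to differ from the hindlimb effect (adjusted p from 0.303 to 0.339).

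Targets of p53, a transcription factor of another stress response, were counted in the same libraries. Of 24 p53 targets tested in E11.5 forelimb, 8 were called higher and 0 lower, with a median difference of 0.46, and the first 3 by adjusted p are given. Eda2r, a death receptor gene, measured 0.490, 0.588 and 0.474 TPM in WT and 7.71, 6.26 and 3.75 TPM in mutant forelimb. Its difference was 2.14 ± 0.18 (adjusted p = 0.000474), without overlap. Ccng1, the cyclin G1 gene, measured 8.34, 10.8 and 8.93 TPM in WT and 41.1, 34.8 and 21.2 TPM in mutant (1.64 ± 0.20, adjusted p = 0.00311), and Aen, an apoptosis-enhancing nuclease gene, 4.71, 4.13 and 4.58 TPM and 10.47, 9.94 and 8.17 TPM (0.94 ± 0.12, 0.00541). All 3 rose under every alternative tried. In E11.5 hindlimb Eda2r measured 0.692, 0.473 and 0.690 TPM in WT and 0.740, 0.493 and 0.655 TPM in mutant, which overlapped. Aen overlapped there too. Ccng1 did not, at 9.26, 6.51 and 8.11 TPM in WT and 9.33, 9.50 and 10.05 TPM in mutant (0.26 ± 0.20, adjusted p = 0.771). In E10.5 forelimb Eda2r did not overlap, at 0.562, 0.751 and 0.502 TPM in WT and 1.07, 1.28 and 1.22 TPM in mutant (0.45 ± 0.14, adjusted p = 0.839). Ccng1 and Aen overlapped in E10.5 forelimb.

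The comparison of limbs gave nominal differences at E10.5 but no calls. In WT, Mthfd2 measured 9.22, 8.94 and 8.09 TPM in forelimb and 13.8, 14.99 and 12.8 TPM in hindlimb, and Asns 24.3, 17.9 and 16.1 TPM and 27.7, 27.4 and 25.0 TPM. Hindlimb was above forelimb in every library for both. Mthfd2 differed by 0.61 ± 0.15 (fold 1.52, interval 1.21 to 1.92, adjusted p = 0.225), and with all 24 libraries in the fit this 1 member was called (adjusted p = 0.0493). Psat1 and Shmt2 differed by 0.40 ± 0.16 and 0.48 ± 0.20, with overlapping limbs. Of 8 members 0 were called by limma (0.124% of genes), and 2 did not overlap (11.7% of genes). An unadjusted p under 0.05 was reached by 4 of 8, against 1060 of 11336 genes. The median over the 8 was 0.29 (0.0044 over all genes).

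In E10.5 mutants, Mthfd2 and Shmt2 were nominally higher and Ddit4 nominally lower in hindlimb. Mthfd2 measured 9.75, 9.79 and 8.91 TPM in forelimb and 15.7, 16.3 and 10.3 TPM in hindlimb, and Shmt2 9.49, 9.98 and 7.41 TPM and 16.5, 15.1 and 10.9 TPM. Ddit4 went the other way, at 5.69, 5.38 and 4.16 TPM in forelimb and 2.03, 1.87 and 2.55 TPM in hindlimb. The limbs did not overlap for any of these. The differences were 0.50 ± 0.15, 0.59 ± 0.20 and -0.94 ± 0.30 (adjusted p = 0.543, 0.614 and 0.576). By limma 0 of 8 were called (0.0618% of genes), and these 3 had an unadjusted p under 0.05 (758 of 11336 genes did). In all 4, these and Atf4, did not overlap (17.1% of genes). At E11.5, 0 members were called between limbs in WT (0.149%) or in mutants (0.377%), and all 8 overlapped (12.5% and 21.7% of genes did not). An unadjusted p under 0.05 was reached by 0 members in either genotype, against 795 of 11398 genes in WT and 1844 in mutants.

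Members were called in comparisons between stages. Atf4 was lower at E11.5 than at E10.5 in both limbs and both genotypes, and Ddit4 was higher. The 12 E10.5 libraries held Atf4 between 23.2 and 34.1 TPM (median 29.5) and the 12 E11.5 libraries between 16.0 and 21.1 TPM (median 18.1), so the stages did not overlap. Atf4 fell by 0.60 ± 0.10 in WT forelimb (fold 0.659, interval 0.572 to 0.759, adjusted p = 0.000194). It fell by 0.47 ± 0.10 in mutant forelimb (adjusted p = 0.00168), by 0.69 ± 0.10 in WT hindlimb (4.54e-05) and by 0.83 ± 0.10 in mutant hindlimb (1.17e-05). In WT forelimb and in both hindlimb comparisons Atf4 was called under every alternative tried. In mutant forelimb the call was lost on the deposited scale (adjusted p = 0.575) and without the libraries that express Xist (0.146). E10.5 reads were trimmed by 3 nt before alignment and E11.5 reads were not, so stage and trimming cannot be told apart.

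Ddit4 ranged from 1.05 to 5.69 TPM at E10.5 (median 3.65) and from 5.27 to 10.54 TPM at E11.5 (median 8.48). Within each limb and genotype the stages did not overlap. In WT forelimb it rose from 3.68, 3.63 and 5.63 TPM to 8.52, 9.19 and 8.80 TPM (0.91 ± 0.25, fold 1.88, adjusted p = 0.0085). In WT hindlimb it rose from 1.05, 2.70 and 4.61 TPM to 7.46, 8.66 and 7.08 TPM (1.32 ± 0.25, adjusted p = 0.000578). The fold of TPM + 1 was 2.5 there (interval 1.73 to 3.6), and the ratio of mean TPM 2.78. It rose by 1.40 ± 0.25 in mutant hindlimb (adjusted p = 0.000445) and by 0.72 ± 0.25 in mutant forelimb (0.0327). The difference was above 0 under every alternative tried, but the mutant forelimb call held in only 5 of 14 (adjusted p up to 0.291). It was lost without E10.5 mutant replicate 2 or 3, E11.5 mutant replicate 1 or 2, or the libraries that express Xist. In WT forelimb it was lost on the deposited scale (adjusted p = 0.272). Ddit4 is also known as a hypoxia target, and the summed level of 20 other hypoxia targets went from 533 to 782 TPM at E10.5 to 369 to 536 TPM at E11.5. What that sum has to do with the Ddit4 level was not tested.

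**Figure D3:**
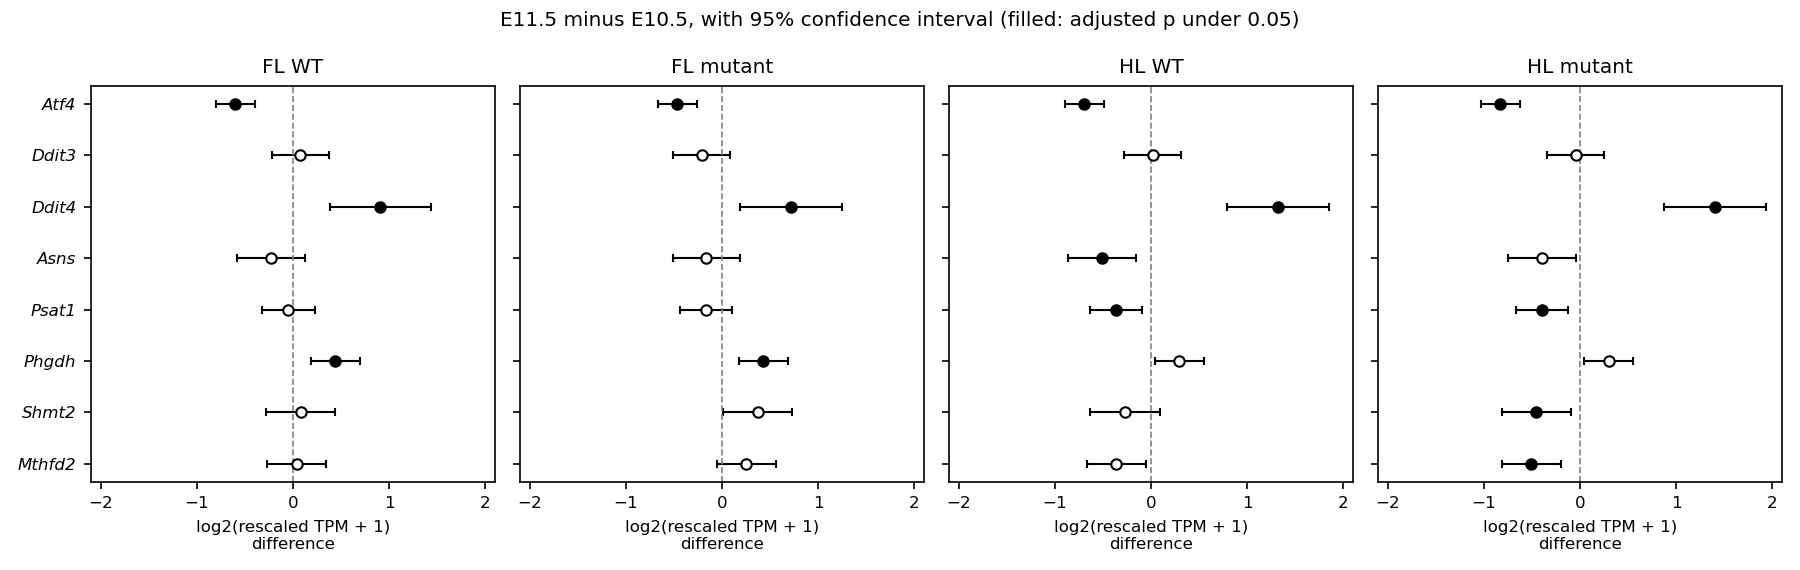
Difference between E11.5 and E10.5, on the log2(rescaled TPM + 1) scale, for the 8 tested genes in each limb and genotype, with 95% confidence intervals from limma. Filled symbols passed an adjusted p of 0.05. Atf4 (from -0.83 to -0.47) and Ddit4 (from 0.72 to 1.40) are filled in all 4 panels, on opposite sides of 0, and Ddit3 is open throughout.

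Among the biosynthetic genes, Phgdh was higher at E11.5 in forelimb. It measured 30.9, 21.5 and 25.1 TPM at E10.5 and 36.8, 36.4 and 32.3 TPM at E11.5 in WT forelimb, without overlap. It rose by 0.44 ± 0.12 there (adjusted p = 0.00828) and by 0.43 ± 0.12 in mutant forelimb (0.0111). Both values depend on the scale, and on deposited TPM the WT forelimb difference was -0.024. The WT forelimb call was also lost without E10.5 WT replicate 2. The mutant forelimb call was lost without E11.5 mutant replicate 3 or without the libraries that express Xist. In hindlimb Phgdh differed by 0.29 ± 0.12 in WT (adjusted p = 0.0604) and 0.30 ± 0.12 in mutant (0.0636), with no overlap between stages.

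Of the other 4 amino acid and folate enzymes, Asns and Psat1 fell in WT hindlimb, and Psat1, Shmt2 and Mthfd2 in mutant hindlimb. In WT hindlimb Asns measured 27.7, 27.4 and 25.0 TPM at E10.5 and 18.7, 17.3 and 19.2 TPM at E11.5, a fall of 0.51 ± 0.17 (adjusted p = 0.0204). Psat1 measured 34.5, 31.1 and 26.5 TPM and then 25.7, 22.5 and 22.3 TPM, a fall of 0.36 ± 0.13 (0.031). Neither gene overlapped between stages. Mthfd2 differed by -0.36 (adjusted p = 0.0543) and Shmt2 by -0.27 (0.217, overlapping), and neither passed. In mutant hindlimb Psat1 fell by 0.40 ± 0.13 (adjusted p = 0.0235), Shmt2 by 0.45 ± 0.17 (0.0455) and Mthfd2 by 0.51 ± 0.15 (0.0118), from 15.7, 16.3 and 10.3 TPM to 10.1, 9.40 and 8.88 TPM for Mthfd2. Shmt2 overlapped between stages there, and Asns differed by -0.40 (adjusted p = 0.071) and did not pass. Several of these calls rest on single libraries, since 2 of 8 members were called in WT hindlimb without E10.5 replicate 1 or 2 or E11.5 replicate 2. In mutant hindlimb 2 were called without E10.5 replicate 1 or 2, and 3 without E11.5 replicate 2 or without the libraries that express Xist. Ddit3 was within 0.21 of equal in all 4 comparisons (adjusted p from 0.262 to 0.929).

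In all, 3 of 8 members were called in WT forelimb (40.0% of 12118 genes, 23.3% higher and 16.8% lower) and 3 in mutant forelimb (36.3%, 18.7% higher and 17.6% lower). In WT hindlimb 4 were called (42.0%, 23.8% higher and 18.2% lower) and in mutant hindlimb 5 (36.3%, 18.5% higher and 17.8% lower). The stages did not overlap for 3, 4, 6 and 6 members (45.2%, 53.2%, 50.9% and 52.6% of all genes). In forelimb 1 of 8 members was called lower and 2 higher in each genotype. In hindlimb 3 of 8 members in WT and 4 of 8 in mutants were called lower, and 1 of 8 higher in each, counts that several single libraries change. The split depends on the scale, since on deposited TPM 8.19%, 80.4%, 6.31% and 2.68% of the called genes were higher in the same order. With protein-coding genes alone, brought to an equal sum, 2358 of 3558 called genes were higher in mutant forelimb and 1477 of 3635 in mutant hindlimb. Median differences of the 8 were 0.06, 0.05, -0.32 and -0.40, against 0.07, 0.02, 0.07 and 0.03 over all genes. After these values were seen, the stage difference was compared between limbs. Averaged over genotypes it was lower in hindlimb by 0.58 ± 0.15 for Mthfd2 (difference -0.58, adjusted p = 0.134) and by 0.59 ± 0.17 for Shmt2 (difference -0.59, adjusted p = 0.22). By limma 0 members were called for this difference averaged over genotypes (0.165% of genes), in WT (0.0165%) or in mutants (0.0330%). In the same order 5, 0 and 3 members had an unadjusted p under 0.05, against 1362, 831 and 1555 of 12118 genes. The limbs were thus not shown to differ in their stage change. Without mutant hindlimb replicate 3 at E10.5, 1 member, Mthfd2, was called (difference -0.68, adjusted p = 0.0159). Over all 12 libraries of a stage, summed limb mesenchyme markers went from 128 to 306 TPM at E10.5 to 233 to 364 TPM at E11.5, and summed markers of 10 endothelial genes from 23.8 to 52.7 TPM to 16.9 to 34.4 TPM. Their part in the stage differences was not tested.

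Other genes of the pathway were counted against the shares of all genes called between stages, 42.0% in WT hindlimb (18.2% lower, 23.8% higher) and 40.0% in WT forelimb (16.8% lower, 23.3% higher). In WT hindlimb, 8 of 17 genes for eIF2 kinases and eIF2 control were called lower and 2 higher, and in WT forelimb 6 were lower and 2 higher. Of 13 further serine, glycine and folate genes, 6 were lower and 0 higher in WT hindlimb, and 5 lower and 3 higher in WT forelimb. Of 16 other ATF4 targets, 5 were lower and 2 higher in WT hindlimb, and 4 lower and 1 higher in WT forelimb. Of 10 amino acid transporters, 1 was lower and 2 higher in WT hindlimb, and 0 lower and 2 higher in WT forelimb, where 9 of the 10 differences were above 0. Of 21 cytosolic aminoacyl-tRNA synthetases, 8 were lower and 0 higher in WT hindlimb, and 5 lower and 1 higher in WT forelimb. Of 21 endoplasmic reticulum chaperones and XBP1 or ATF6 targets, 9 were lower and 2 higher in each limb. The following 3 examples were chosen after their values were seen. Eif4ebp1, which encodes the translation repressor 4E-BP1, fell by 1.63 in WT hindlimb (adjusted p = 2.71e-05), from 25.7, 30.7 and 24.4 TPM to 8.57, 7.99 and 7.48 TPM. Mthfd1l, the mitochondrial formyltetrahydrofolate synthetase gene, fell by 1.10 there, from 6.72, 8.15 and 6.59 TPM to 2.64, 2.87 and 2.89 TPM. Eif2s1, which encodes the eIF2 subunit that the kinases phosphorylate, fell by 0.80, from 34.8, 27.0 and 24.8 TPM to 17.5, 14.4 and 16.3 TPM. The stages did not overlap for any of them.

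Within groups, some members varied together from library to library and others did not. After subtraction of group means, the deviations of Asns and Mthfd2 correlated at 0.79 over the 24 libraries, Psat1 and Phgdh at 0.57 and Asns and Psat1 at 0.54. Shmt2 and Mthfd2 correlated at 0.49. Other pairs of these enzymes were lower, with Psat1 and Mthfd2 at 0.46 and Asns and Phgdh at 0.31. Phgdh and Mthfd2 were at 0.23, Asns and Shmt2 at 0.18, Phgdh and Shmt2 at 0.079 and Psat1 and Shmt2 at -0.32. Atf4 itself correlated at -0.17 with Asns, -0.067 with Psat1, -0.065 with Mthfd2, 0.060 with Ddit3 and 0.18 with Phgdh. Its highest values were 0.44 with Shmt2 and 0.40 with Ddit4. Ddit3 ranged from -0.37 with Phgdh to 0.36 with Mthfd2. Psat1 and Ddit4 went opposite ways at -0.62, while Shmt2 and Ddit4 went together at 0.62. Without the 2 libraries most extreme in the first-named gene, the values were 0.70 for Asns and Mthfd2, 0.49 for Psat1 and Phgdh, 0.56 for Asns and Psat1 and 0.69 for Shmt2 and Mthfd2. They were -0.59 for Psat1 and Ddit4 and 0.50 for Shmt2 and Ddit4. Values of one library share its scale factor and RNA composition, so these coefficients are descriptions. Atf4 had the smallest spread, with a coefficient of variation of 6.52% within groups, and Trib3 the largest, at 46.8%. The genes outside the set that were most like the mean of the members over the 24 libraries, of 5931 ranked by Pearson correlation, were Pwp2 (0.83), Bop1 (0.83), Mrpl37 (0.83), Pfas (0.81) and Ruvbl2 (0.78). That mean joins members with unlike profiles. Over the 24 libraries Asns and Mthfd2 correlated at 0.79, but Atf4 and Ddit4 at -0.77 and Atf4 and Phgdh at -0.71. Likeness to the mean is thus not likeness to each member.

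**Figure D4:**
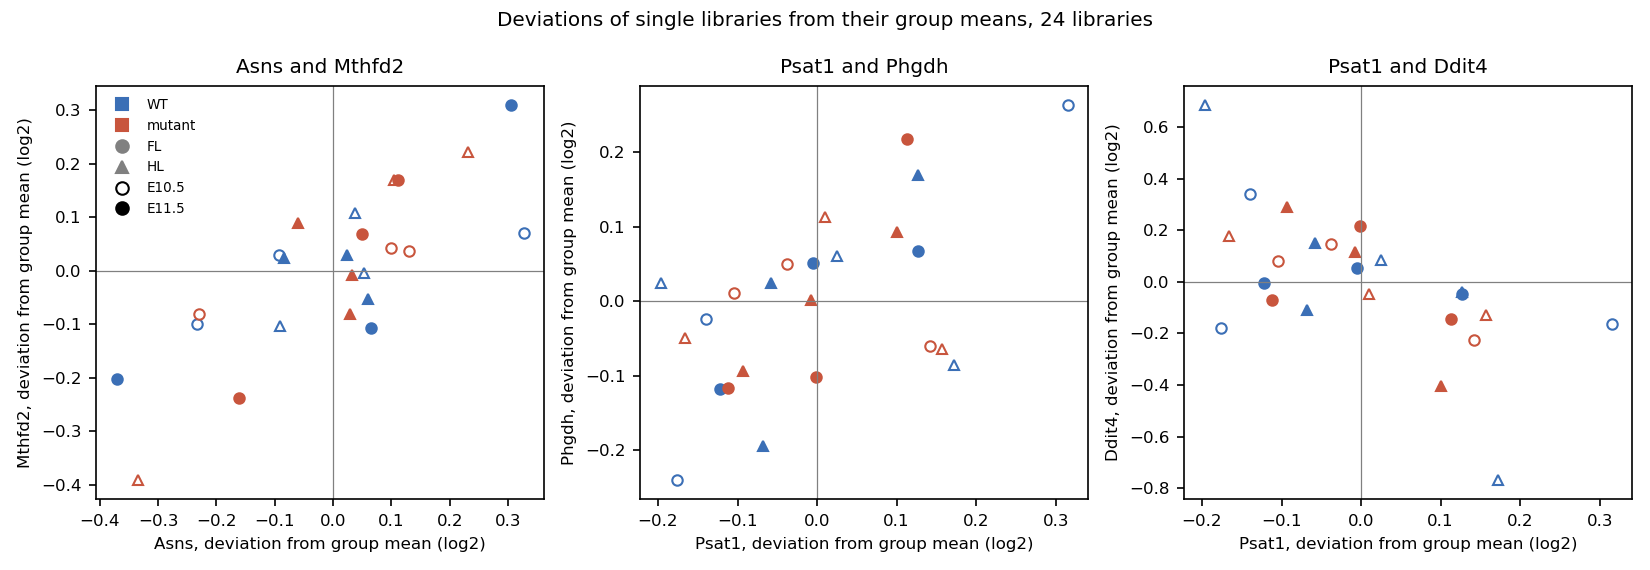
Deviation of each of the 24 libraries from its group mean, on the log2(rescaled TPM + 1) scale, for 3 pairs of members. Blue is WT, red mutant, circles forelimb, triangles hindlimb, open symbols E10.5 and filled symbols E11.5. Asns and Mthfd2 rise together (r = 0.79), as do Psat1 and Phgdh (0.57), and Psat1 and Ddit4 run opposite ways (-0.62).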

How the data were processed

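Total RNA of limb buds was sequenced from 1 library per sample. The authors deposited TPM values per gene symbol, which sum to 1000000 in each library, as checked here. Per the submitters' processing notes, reads were aligned with HISAT2 to mm10. No source used here names the quantifier, annotation or strand setting. Per the labels, E10.5 reads were trimmed by 3 nt.

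Each library was rescaled to an equal median log2 TPM over the 3518 genes with at least 5 TPM in all 24 libraries. Values were transformed as log2(rescaled TPM + 1), and genes that reached 1 TPM in fewer than 3 libraries of a fit were dropped. The fit used limma 3.58.1 in R 4.3.3 (trended empirical Bayes, two-sided), over the 12 libraries of each stage or, for stage comparisons, over all 24. P-values were adjusted by Benjamini-Hochberg over all genes. The fit was tested on simulated data. Members and lists were chosen with earlier results of these data known. All 10 members were named, and up to 3 called genes from each other list. Alternatives were the pseudocount (0.1), the filter, the scaling, the libraries fitted, a replicate block and leaving out libraries. The comparison of stage differences between limbs was added after the values were seen. Positions came from GENCODE M21 and promoters from RefSeq (GRCm38.p6). TPM keeps no depth, so no counting interval is given.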

Additional observations from a re-analysis of the deposited data

Results flagged for a closer look

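Eda2r, a p53 target and not an integrated stress response gene, had mutant effects and stage changes that differed between groups by the test of the difference itself. At E11.5 the mutant effect in hindlimb was lower than in forelimb (difference -2.13, adjusted p = 0.0358), which 11 of 21 alternatives also called. In forelimb the mutant effect was higher at E11.5 than at E10.5 (difference 1.69, adjusted p = 0.00196), which 19 of 20 alternatives also called. The stage change in hindlimb differed from that in forelimb by -1.83 in mutants (adjusted p = 0.000596) and by -0.97 averaged over genotypes (adjusted p = 0.0137). No member of the integrated stress response set differed between groups by such a test.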

How the results depend on the processing

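Mutant and WT comparisons gave 0 called members under all alternatives tried, except in E11.5 forelimb, where 4 were called on the deposited scale and 0 to 1 with a library left out (1 without WT replicate 1). Between limbs, 1 member was called in E10.5 WT with all 24 libraries fitted, and 5, all lower in hindlimb, in E11.5 mutants on the deposited scale. Between stages the deposited scale gave 1 member in WT forelimb and 0 in mutant forelimb, where leaving out the libraries that express Xist also gave 0. With a library left out, 2 to 3 members were called in WT and in mutant forelimb and 2 to 4 in WT hindlimb. In mutant hindlimb 2 to 6 were called with a library left out and 3 without the libraries that express Xist. The stage difference of mutants compared between limbs gave 6 called members on the deposited scale and 0 to 1 with a library left out, and its average over genotypes 0 to 1. On the deposited scale the Phgdh difference in WT forelimb became -0.024, and Kdm3a in E11.5 forelimb mutants became 0.091. The deposited scale shifts most genes together, by a median of 0.39 in E11.5 forelimb mutants and of -0.61 in mutant hindlimb between stages.

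Same-numbered libraries did not meet the criterion for pairing (in no pair of groups were all 3 correlations over 0.1). As a hint from the data and not the design, at E10.5 forelimb and hindlimb libraries correlated highest with their own number in 6 of 6 WT libraries (0.144, 0.0593 and 0.282) and 5 of 6 mutant libraries (0.0969, 0.166 and 0.175), against 0 to 5 of 6 in the other pairs of groups. The Xist libraries also share numbers across limbs (mutants 1 and 3 at E10.5, mutant 3 at E11.5). With the number as a replicate block, 0 members were called between genotypes or limbs, and 3, 3, 5 and 4 between stages in WT forelimb, mutant forelimb, WT hindlimb and mutant hindlimb. The block lowered the genes called in E11.5 forelimb mutants from 189 to 95 and those called on average over limbs at E11.5 from 66 to 24. Protein-coding genes alone, brought to an equal sum, gave 103 in E11.5 forelimb mutants, and the deposited scale 3733. With 3 libraries a group and unknown depth, small changes in Trib3 and Chac1, all under 1 TPM, could not be tested.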
